A study of Mus musculus with 2 samples.

Results

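Gdf15, Kit and Epor are 3 genes of the erythropoietic response to anemia, 1 secreted signal and 2 cell-surface receptors, and they were taken by gene symbol from the 26124 genes of a single-cell RNA sequencing count matrix of mouse spleen. All 3 had a row, and all 3 passed the filter on genes seen in few cells. The study compared the spleen of a mouse with sickle cell disease (SCD) with that of a control mouse, both aged 12–16 weeks and untreated, with 1 mouse and 1 library per group. The SCD mouse was of the Berkeley model, homozygous for Hbatm1Paz, homozygous for Hbbtm1Tow and homozygous for the transgene Tg(HBA-HBBs)41Paz. According to these labels its own α- and β-globin genes were disrupted, and the human globins, sickle β-globin included, came from the transgene. The control, labelled wild-type, was also homozygous for Hbatm1Paz, and was heterozygous for Hbbtm1Tow and hemizygous for the transgene. By its labels it was therefore a non-sickling genotype with disrupted α-globin genes and not an unmodified mouse. Spleen cells were enriched with magnetic beads coated with an antibody to F4/80, a macrophage surface protein, so the shares of cell types below are shares of an enriched suspension. Whether adherent cells and macrophage-bound erythroblasts stayed together in it was not tested. After filtering, 19418 cells of 24144 deposited barcodes were kept in the wild-type-labelled library and 12279 of 15442 in the SCD-labelled library, with medians of 4115.5 and 4571 unique molecular identifiers (UMIs, the count of distinct transcripts) per cell. The libraries shared 107 deposited barcode sequences, 65 of them among kept cells.

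When red cells are lost, the spleen of a mouse becomes a site of stress erythropoiesis. Erythroid progenitors there depend on KIT, the receptor for stem cell factor (the product of Kitl), and later precursors on EPOR, the receptor for erythropoietin. They mature in contact with a macrophage, as an erythroblastic island (EBI). GDF15 is a secreted protein of the TGF-β superfamily that is induced by cell stress and, in human anemias with ineffective erythropoiesis, is abundant in serum. KIT is also carried by mast cells, innate lymphoid cells and some dendritic cells (DCs), and red pulp macrophages (RPMs) of the spleen clear aged red cells.

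Levels are given as UMIs of the gene per 1000000 UMIs of the group of cells (CPM), with exact 95% Poisson intervals in brackets. Since 1 mouse stands behind each group, no difference between the groups was tested. All intervals cover counting error only and not the difference between animals. They take UMIs as independent and so also leave out the spread from cell to cell within a library. In 1 cluster of the wild-type-labelled library, for example, 1 cell held 42 of 283 Gdf15 UMIs. A change between libraries or between classes was called when the log2 ratio of CPM was beyond 1 either way in a gene with at least 100 UMIs. Classes carry the ending "-like", because clusters were named from markers alone. Where a class is not known to transcribe a gene, its level was read against a main cluster of B cells, which was taken as the reference for transcripts released into the suspension. This reference held 478 cells with a median of 2106.5 UMIs in the wild-type-labelled library and 1715 cells with a median of 2898 UMIs in the other.

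The β-globin transcripts went against the labels. In erythroid-like cells the adult β-globin gene Hbb-bs stood at 157 CPM in the wild-type-labelled library and at 47160 CPM in the SCD-labelled library, whose genotype lacks this gene. Hbb-bt, the second adult β-globin gene, gave 299 and 16142 CPM. Hba-a1, an α-globin gene disrupted in both genotypes according to the labels, was found at 28918 and 31050 CPM. B cells of the reference had 12.3 and 602 CPM of Hbb-bs. With 1 library per group no result can be given without either one, and every direction below holds for the libraries as they are labelled and would be the opposite were the labels exchanged. Classes were not spread evenly over them either. RPM-like cells of the wild-type-labelled library came from clusters led by Abcc5 and Marco, and those of the SCD-labelled library from a cluster led by Rgs1. Of 920 EBI-like cells in the SCD-labelled library, 619 lay in a cluster led by Hbb-bs that held 8 cells of the other library. In these classes the cluster and the library cannot be told apart.

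On the mouse genome build GRCm38, Gdf15 (ENSMUSG00000038508) occupied chromosome 8, positions 70629393 to 70632456, on the minus strand, and its longest transcript had 3 exons. Kit (ENSMUSG00000005672) lay on chromosome 5, positions 75574916 to 75656722, on the plus strand, with 21 exons. Epor (ENSMUSG00000006235) lay on chromosome 9, positions 21958897 to 21963506, on the minus strand, with 8 exons. Each had 2 protein-coding transcripts, and 0 other annotated genes overlapped any of them. The bases just before the first start of each gene in either annotation, from RefSeq promoter windows on GRCm38.p6, are shown because erythroid genes are commonly controlled by GATA1 and KLF1, and the levels of the 3 genes differed between erythroid and other cells. Capitals mark matches on either strand to a GATA motif (AGATAA or AGATAG or TGATAA or TGATAG) or to CCACCC, the core of the sequence bound by KLF1.
Gdf15, chr8:70632457-70632706, minus strand: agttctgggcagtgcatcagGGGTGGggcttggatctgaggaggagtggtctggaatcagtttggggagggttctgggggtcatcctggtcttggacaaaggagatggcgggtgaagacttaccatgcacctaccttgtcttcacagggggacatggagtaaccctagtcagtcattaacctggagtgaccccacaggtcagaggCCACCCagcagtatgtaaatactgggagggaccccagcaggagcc
Kit, chr5:75574737-75574915, plus strand: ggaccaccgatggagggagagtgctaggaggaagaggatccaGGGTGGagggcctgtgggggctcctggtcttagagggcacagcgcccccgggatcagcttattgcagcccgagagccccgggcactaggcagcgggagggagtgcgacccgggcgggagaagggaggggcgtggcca
Epor, chr9:21963577-21963826, minus strand: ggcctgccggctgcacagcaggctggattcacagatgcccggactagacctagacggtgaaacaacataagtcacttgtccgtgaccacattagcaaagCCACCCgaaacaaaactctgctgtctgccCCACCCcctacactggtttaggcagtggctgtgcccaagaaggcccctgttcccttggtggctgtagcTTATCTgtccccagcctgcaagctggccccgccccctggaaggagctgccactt
A GATA match was present in the Epor stretch and in neither of the others. CCACCC matched 2 times before Gdf15, 1 time before Kit and 2 times before Epor. Neither the E-box CAGCTG nor the letters TGATGA or TGACGA, partial sites of stress-induced ATF factors, matched in any of them. Such matches are common: among 32851 promoters, windows of 250 bases held a GATA match in 26.5%, CCACCC in 28.1%, the E-box in 13% and the ATF letters in 13.2%, and windows of 179 bases, the length shown for Kit, in 21.4%, 19.9%, 9.16% and 9.27%.

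The 3 genes peaked in different classes. Gdf15 was highest in RPM-like cells, Kit in dendritic-like cells and Epor in erythroid-like cells, in both libraries. Over the 41 groups formed by the clusters of 50 or more cells in each library, the levels of Gdf15 and Kit had a Pearson r of -0.32, those of Kit and Epor -0.40, and those of Gdf15 and Epor 0.40 on the log2 scale. These are descriptions, since the groups share 2 libraries. In cells thinned to 1000 UMIs, 1 of 1665 erythroid-like cells and 4 of 5800 EBI-like cells of the wild-type-labelled library had a UMI of both Kit and Epor, shares of 0.060% and 0.069% beside 0.079% and 0.091% for the product of the single shares. Gdf15 and Epor were seen together in 22 of those EBI-like cells, 0.379% beside a product of 0.4002%. EBI-like cells of that library held the largest share of both Gdf15 and Epor UMIs, 42.1% and 45.4%.

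**Figure D1:**
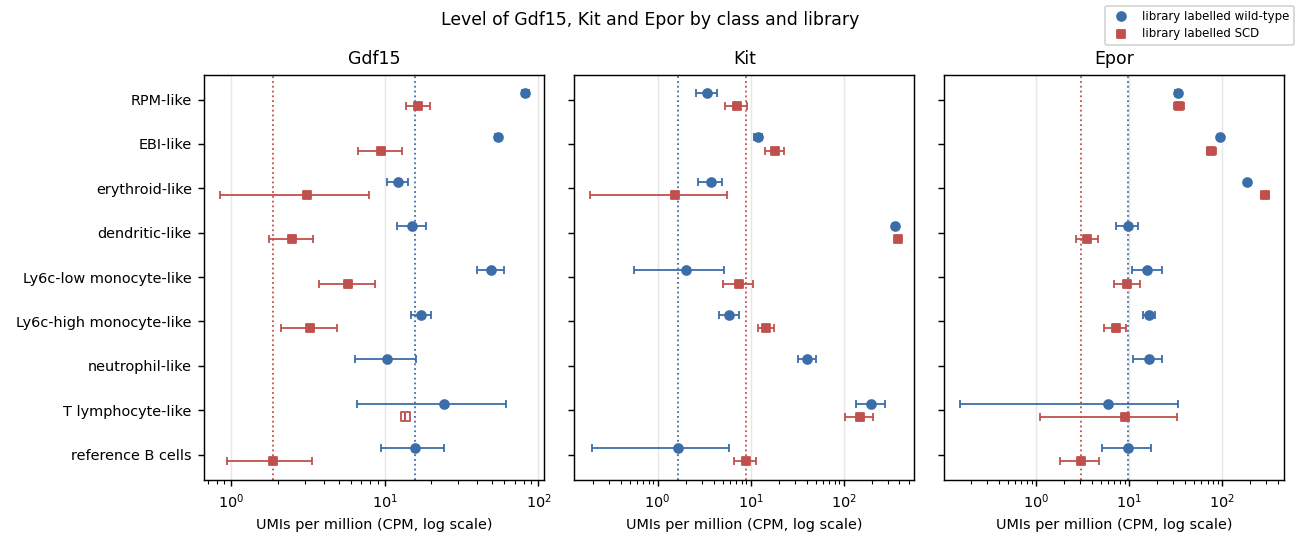
Level of Gdf15, Kit and Epor (CPM, log scale) in each class with at least 50 cells of the library, with exact 95% Poisson intervals, for the wild-type-labelled library (blue circles) and the SCD-labelled library (red squares); dotted lines mark the B-cell reference and an open symbol marks a class with 0 UMIs, drawn at 3 counts. Gdf15 peaks in RPM-like cells at 82.2 and 16.4 CPM, Kit in dendritic-like cells at 358 and 384 CPM, and Epor in erythroid-like cells at 187 and 289 CPM.

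Gdf15, the secreted signal, was a macrophage transcript in these spleens and was lower in the SCD-labelled library, by 5.01-fold in RPM-like cells. RPM-like cells had 82.2 CPM [78.0–86.7] in the wild-type-labelled library and 16.4 CPM [13.6–19.6] in the SCD-labelled library. EBI-like cells had 54.4 CPM and 9.43 CPM [6.67–12.9]. The order of these named classes was alike in both, with RPM-like above EBI-like, then Ly6c-low monocyte-like cells at 48.9 and 5.76 CPM. Intervals of EBI-like and Ly6c-low monocyte-like cells overlapped in each library, so these neighbours in the order did not differ beyond counting error. RPM-like cells held 31.5% and 32.0% of all Gdf15 UMIs, and EBI-like cells of the wild-type-labelled library another 42.1%. EBI-like cells of the SCD-labelled library held 9.90%, and its unnamed clusters 31.0%. Of the 119 UMIs behind the latter share, 1 cell of the cluster led by Cd209a held 25 and 1 cell of the cluster led by Igha held 24.

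Against the B-cell reference, Gdf15 was higher in RPM-like cells by a log2 ratio of 2.40 [1.75–3.13] in the wild-type-labelled library and 3.14 [2.25–4.17] in the other. In that comparison 21.2% of 9185 genes and 21.9% of 7803 genes were called higher. After thinning every cell to 1000 UMIs, 5.69% of RPM-like cells had a Gdf15 UMI in the wild-type-labelled library, against 1.26% of reference B cells. The shares were 1.21% and 0.18% in the SCD-labelled library. Without thinning they were 14.6% and 4.85% of RPM-like cells and 3.35% and 0.52% of reference B cells, where RPM-like cells had median depths of 2145 and 4091 UMIs. Among all kept cells of the wild-type-labelled library, 148 had 5 or more Gdf15 UMIs. The highest number in 1 cell, 42, was reached in RPM-like and in EBI-like cells. In the SCD-labelled library 10 of all kept cells reached 5. The highest there, with 25, lay in the unnamed cluster led by Cd209a, and RPM-like cells had at most 7.

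Between the libraries, Gdf15 in RPM-like cells differed by a log2 ratio (SCD over wild-type, as for all such ratios here) of -2.32 [-2.60 to -2.06], and 4.31% of 9992 genes were called lower in this comparison. In EBI-like cells the ratio was -2.53 [-3.03 to -2.07], where 6.21% of 10698 genes were called lower. It was -3.09 in Ly6c-low monocyte-like cells, -2.59 in dendritic-like cells, -3.06 [-4.28 to -1.92] in the B-cell reference and -2.81 over all kept cells. The lower Gdf15 level of the SCD-labelled library was thus found in every one of these classes, the reference included, and the intervals of the RPM-like and reference ratios overlapped. The median ratio of all genes tested in RPM-like cells was 0.20.

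Within the wild-type-labelled library the RPM-like cluster led by Abcc5 had 103 CPM [96.2–110] of Gdf15 and the one led by Marco 59.9 CPM [54.7–65.5]. These clusters also differed in depth, with medians of 7310 and 1655 UMIs. The cluster led by Rgs1, of the SCD-labelled library, had 16.2 CPM. EBI-like clusters of the wild-type-labelled library ranged from 40.3 CPM in 1 led by Slfn14 with few UMIs per cell to 76.0 CPM in the other led by Slfn14. In the cluster led by Car1, which held cells of both libraries, Gdf15 stood at 40.8 and 4.38 CPM, the latter from 3 UMIs. In the one led by Xpo7, it stood at 47.7 and 6.999 CPM.

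**Figure D2:**
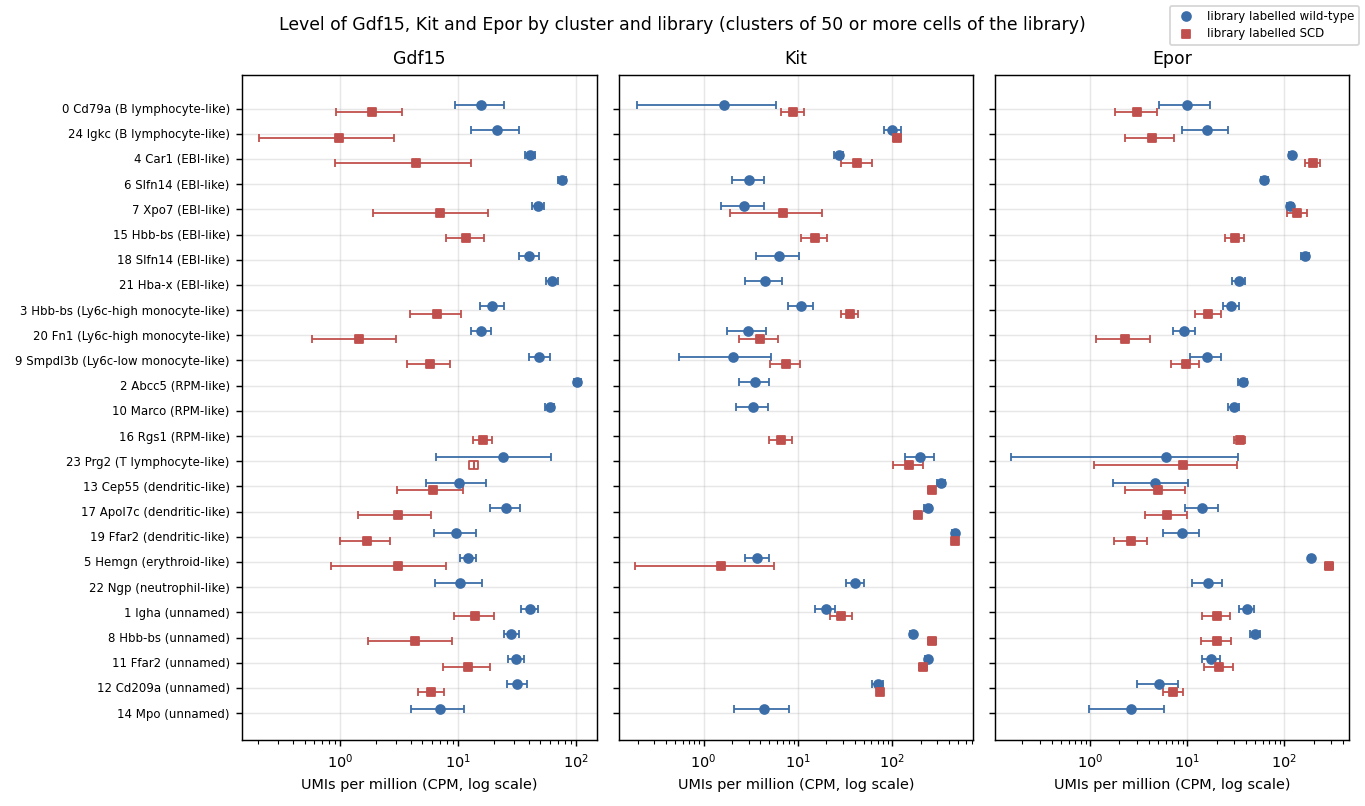
Level of each gene (CPM, log scale, exact 95% Poisson intervals) in every cluster with at least 50 cells of a library, named by number, leading gene and class; an open symbol marks 0 UMIs, drawn at 3 counts. Gdf15 is highest in the RPM-like cluster led by Abcc5 (103 CPM), Kit in the dendritic-like cluster led by Ffar2 (460 and 459 CPM) and Epor in the erythroid-like cluster (187 and 289 CPM).

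Erythroid-like cells, where a signal from erythroblasts would be sought, had little Gdf15. It stood at 12.2 CPM [10.3–14.2] in the wild-type-labelled library, from 160 UMIs, and at 3.08 CPM [0.84–7.90] in the SCD-labelled library, from 4 UMIs. The reference B cells had 15.6 CPM [9.39–24.4] and 1.87 CPM [0.93–3.34], so the erythroid-like level was not above the reference beyond counting error in either library. In the wild-type-labelled library the log2 ratio over the reference, -0.36, was 0.71 with at least 200 genes per cell and 0.70 at a clustering resolution of 0.5. The log2 ratio between libraries was -1.98 [-3.87 to -0.59], in a comparison with 7.04% of 8253 genes called lower. After thinning, 1.08% of erythroid-like cells in the wild-type-labelled library had a Gdf15 UMI, against 1.26% of reference B cells; in the SCD-labelled library 0 of 156 had one, which allows a share of up to 1.92%.

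Transcripts of macrophage markers moved with Gdf15 from class to class. The 9 RPM markers, none of them at 0, summed to 23349 CPM in RPM-like, 4628 in erythroid-like and 2438 in reference B cells of the wild-type-labelled library, and to 20778, 2159 and 1767 CPM in the SCD-labelled library. For each 1000 UMIs of these markers there were 3.52 Gdf15 UMIs in RPM-like, 3.48 in EBI-like, 3.19 in dendritic-like and 2.62 in erythroid-like cells of the wild-type-labelled library. Reference B cells had 6.40 [3.85–9.99], from 19 UMIs. In the other library the values were 0.79, 0.74, 1.23, 1.43 [0.39–3.66] and 1.06. Ly6c-low monocyte-like cells had 5.09 [4.12–6.21] and 1.05. In the wild-type-labelled library these cells and the reference thus lay above RPM-like cells, at [3.34–3.71], beyond counting error. RPM-like cells of the libraries differed in this ratio as they did in CPM.

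**Figure D3:**
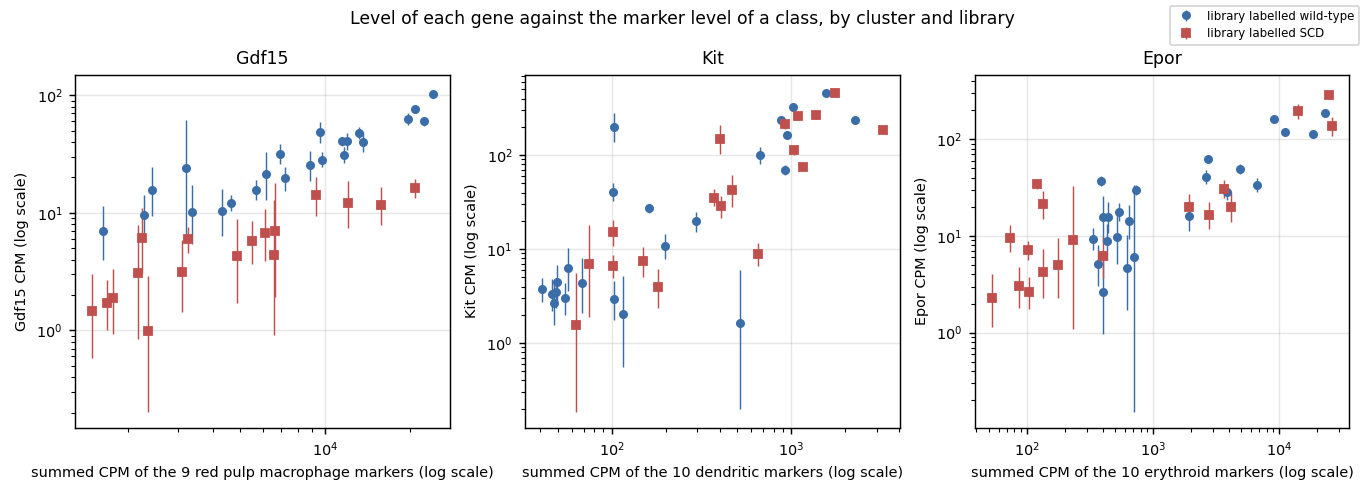
Level of each gene (CPM) against the summed level of a marker list in the same cluster and library, both on log scales with exact 95% Poisson intervals for the gene; clusters with 0 UMIs of the gene are not drawn. Gdf15 is higher in clusters with more RPM marker transcripts in each library and lower in the SCD-labelled library at a like marker level, while Epor of the RPM-like cluster of that library lies above clusters with a similar erythroid marker level.

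Gdf15 in RPM-like cells was also read by the erythroid transcripts they carried. RPM-like cells with a UMI of 0, 1, 2 and 3 or more of the 10 erythroid markers had 105, 66.0, 79.5 and 89.6 CPM of Gdf15 in the wild-type-labelled library, with no order along the number of markers. In the SCD-labelled library the values were 14.2, 16.9, 25.5 and 33.5 CPM, the last from 22 cells and 5 UMIs, with overlapping intervals. Every such set of the wild-type-labelled library lay above every set of the other, apart from the overlap of intervals with the last one. The genes most like Gdf15 over the 41 groups, among 13006 genes, were Pdgfc with a Pearson r of 0.961, Lpl (lipoprotein lipase) with 0.954, Gas6, a bridging molecule for the engulfment of dying cells, with 0.952, Cd5l, an RPM marker, with 0.951, and Eva1a with 0.941.

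Kit, the receptor for stem cell factor, was found at its highest level in dendritic-like cells and not in the erythroid-like or EBI-like class. Dendritic-like cells had 358 CPM [342–373] in the wild-type-labelled library and 384 CPM [375–394] in the SCD-labelled library. Reference B cells had 1.64 CPM [0.20–5.93], from 2 UMIs, and 8.83 CPM [6.60–11.6], which gave log2 ratios of 7.77 [5.91–10.8] and 5.44 [5.05–5.87]. In this comparison 17.0% of 7230 genes and 15.3% of 9495 genes were called higher. After thinning to 1000 UMIs, 30.7% of dendritic-like cells of each library had a Kit UMI, against 0 of 475 reference B cells of the wild-type-labelled library, which allows a share of up to 0.63%, and 1.18% of those of the SCD-labelled library. Without thinning the dendritic-like shares were 64.7% and 70.1%, at median depths of 3329 and 4472 UMIs.

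The dendritic-like Kit level was close in the libraries, with a log2 ratio of 0.10 [0.03–0.18] where the median of 10143 genes was 0.01. Over all kept cells, however, Kit stood at 49.7 and 127 CPM, a log2 ratio of 1.35 [1.30–1.40]. Dendritic-like cells made up 7.08% of kept cells in the wild-type-labelled library and 25.5% in the SCD-labelled library, and held 38.7% and 71.5% of all Kit UMIs. Those shares of cells are of a suspension enriched on F4/80, and the part of the enrichment in them was not tested.

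Kit differed among dendritic-like clusters more than between libraries. The cluster led by Ffar2, which also had Kit among its leading genes and 3 of 6 markers of type 2 conventional DCs, had 460 CPM [434–487] and 459 CPM [446–472]. Dividing dendritic-like cells, led by Cep55, had 328 CPM [298–361] and 263 CPM [239–288], with intervals that did not overlap. Cells led by Apol7c and Ccr7, genes of mature DCs, were lowest, with 238 CPM [216–261] and 187 CPM [172–204]. By marker UMIs within the class, cells with type 2 markers had 460 and 463 CPM, cells with type 1 markers 342 and 343 CPM, and cells with mature markers 286 and 217 CPM. Of these 3 marker sets, the type 1 and type 2 levels were nearly equal between libraries. Intervals of the mature set did not overlap between them, at 257–318 and 198–238 CPM.

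Unnamed clusters held 46.4% and 20.1% of Kit UMIs. A cluster led by Ffar2 that also carried RPM markers had 238 and 212 CPM, and one with dendritic markers beside globin transcripts had 165 and 266 CPM. A cluster led by Cd209a had 70.2 and 74.9 CPM, where 26.8% of cells were marked as doublets, and these doublets had 131 and 146 CPM against 48.9 and 25.4 CPM in the rest. The genes most like Kit over the 41 groups were Klri2 with a Pearson r of 0.968, St8sia1 with 0.958, the predicted gene Gm44135 with 0.958, Elavl4 with 0.949 and Ffar2, a receptor for short-chain fatty acids, with 0.949.

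T lymphocyte-like cells, 56 and 72 of them, had the next highest Kit level among named classes, with 199 CPM [137–280] and 149 CPM [103–210], each from 33 UMIs. In the SCD-labelled library all 33 UMIs came from 21 cells with no UMI of the T-cell receptor complex genes Cd3d, Cd3e or Cd3g and with a UMI of an innate lymphoid marker, at 462 CPM [318–648]. The 39 cells with a Cd3 UMI had 0 Kit UMIs, which at 3 counts allows 24.3 CPM. In the other library the Cd3-positive cells had 112 CPM [56.1–201], from 11 UMIs, and 6 cells with a progenitor marker and no Cd3 gave 18 of the 33 UMIs.

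Erythroid-like cells, led by Hemgn, had few Kit UMIs. Kit stood at 3.72 CPM [2.75–4.92] in the wild-type-labelled library and 1.54 CPM [0.19–5.57] in the SCD-labelled library, from 49 and 2 UMIs. These were too few to be tested between libraries, and the intervals overlapped those of reference B cells in the first library and lay below them in the second. This order was not stable, since the log2 ratio over the reference in the SCD-labelled library, -2.52, was positive in 5 of 12 alternative settings, up to 2.08. After thinning, 0.42% and 0% of erythroid-like cells had a Kit UMI. Without cells marked as doublets the level was 2.41 CPM [1.61–3.46] in the wild-type-labelled library, and 0 UMIs remained in 144 cells of the other, which allows 2.52 CPM. No erythroid-like cell had 5 or more Kit UMIs, whereas 94 dendritic-like cells had them in the wild-type-labelled library and 294 in the other.

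RPM-like cells were also at the level of the reference, with 3.40 CPM [2.58–4.40] and 7.07 CPM [5.30–9.25] of Kit. The class leaves out the unnamed cluster led by Ffar2, which met the marker limits of RPM-like cells and had 238 and 212 CPM. The log2 ratio of RPM-like cells between libraries was 1.06 [0.49–1.62], past the limit for a call, in a comparison with 9.07% of 9992 genes called higher. Reference B cells differed in the same direction, by 2.43 [0.50–5.51].

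EBI-like cells had 12.0 CPM [10.8–13.2] and 18.4 CPM [14.4–23.1] of Kit, and the cluster led by Car1, an early erythroid gene, had 27.2 and 42.4 CPM. It held 326 of 412 EBI-like Kit UMIs in the wild-type-labelled library and 29 of 74 in the SCD-labelled library, where the Hbb-bs cluster held 40. In the Car1 cluster 45.1% of cells were marked as doublets, and the rest had 22.2 CPM [18.5–26.5] and 56.0 CPM [22.5–115] of Kit, against 31.7 and 39.3 CPM in the doublets. These marks fell on 539 of 1252 cells of the wild-type-labelled library and 64 of 85 cells of the other. Dendritic markers moved with Kit. Cells with a UMI of at most 1 of the 10 dendritic markers had 12.4 CPM in the wild-type-labelled library, those with 2 or 3 had 54.2 CPM and those with 4 or more had 102 CPM. The library labelled SCD gave 25.7, 75.9 and 51.2 CPM, from 9, 9 and 11 UMIs. Among cells with at most 1 dendritic marker, 92 cells of the wild-type-labelled library with a UMI of Myb, a transcription factor of progenitors, had 59.2 CPM [45.3–76.0], and 885 cells without it had 6.17 CPM [4.55–8.18].

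**Figure D4:**
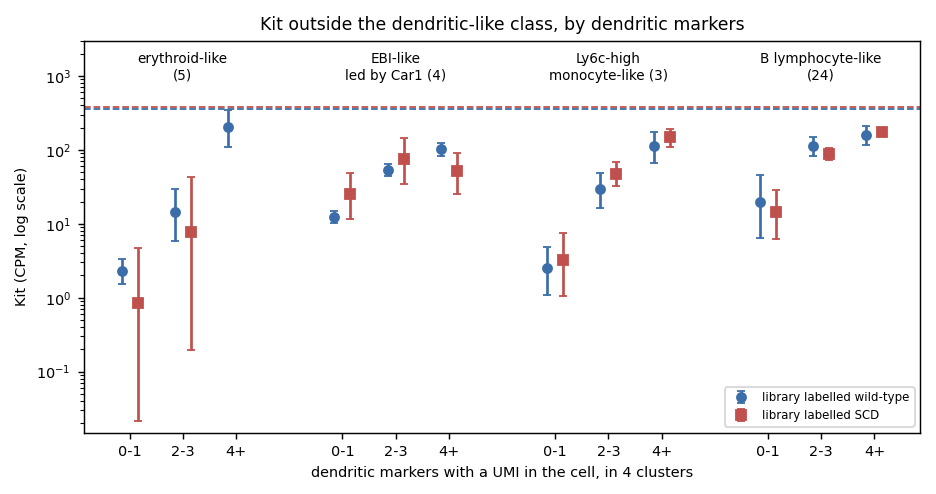
Kit (CPM, log scale, exact 95% Poisson intervals) in 4 clusters outside the dendritic-like class, in cells with a UMI of 0 or 1, 2 or 3, and 4 or more of the 10 dendritic markers; dashed lines mark the dendritic-like level of each library, and sets with 0 UMIs are not drawn. Kit was higher with more dendritic markers in all but the EBI-like and erythroid-like cells of the SCD-labelled library, the latter with 1 UMI in each set drawn. In the erythroid-like cluster of the wild-type-labelled library it went from 2.30 to 205 CPM [109–350], the last from 6 cells and 13 UMIs.

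Clusters of other classes were read in the same way. In the Ly6c-high monocyte-like cluster led by Hbb-bs, which also carried erythroid transcripts and had 46.6% of its cells marked as doublets, cells with at most 1 dendritic marker had 2.50 and 3.24 CPM of Kit, and cells with 4 or more had 112 and 147 CPM. The smaller B lymphocyte-like cluster, 87.8% of whose cells were marked as doublets, had 101 and 113 CPM. Neutrophil-like cells of the wild-type-labelled library, 277 in number, had 40.5 CPM [32.2–50.2]. Their 255 cells with at most 1 dendritic marker still had 28.2 CPM [20.9–37.1].

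Epor, the receptor for erythropoietin, marked the erythroid-like cells of both libraries. Its level there was 187 CPM [180–195] in the wild-type-labelled library and 289 CPM [261–320] in the SCD-labelled library. EBI-like cells followed with 94.4 CPM [91.2–97.7] and 76.9 CPM [68.6–86.0], then RPM-like cells with 33.8 and 35.0 CPM. Reference B cells had 9.85 CPM [5.09–17.2] and 3.06 CPM [1.81–4.83], and dendritic-like cells 9.70 and 3.59 CPM, which did not differ from the reference beyond counting error.

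Erythroid-like cells exceeded the reference by log2 ratios of 4.25 [3.44–5.20] and 6.56 [5.88–7.33], in comparisons with 21.5% of 8056 genes and 40.4% of 2272 genes called higher. After thinning to 1000 UMIs, 18.8% and 27.6% of erythroid-like cells had an Epor UMI, against 0.63% and 0.24% of reference B cells. Without thinning the shares were 70.4% and 85.3%, at near-equal median depths of 6767.5 and 6839.5 UMIs. The largest number of Epor UMIs in 1 cell was 11.

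Between the libraries Epor in erythroid-like cells had a log2 ratio of 0.63 [0.46–0.78], below the limit for a call, in a comparison where 0.63% of 8253 genes were called higher and the median was -0.08. The ratio came from 156 cells of the SCD-labelled library and 1672 of the other. Cells left after removal of doublets had 192 and 301 CPM. When the class was formed in other ways the ratio was as low as 0.08, in cells taken by their number of erythroid markers. Over all kept cells the order was the opposite, 66.8 against 20.2 CPM, a log2 ratio of -1.72, with erythroid-like cells at 8.61% and 1.27% of kept cells and EBI-like cells at 31.2% and 7.49%.

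In EBI-like cells the ratio was -0.30 [-0.47 to -0.13]. This ratio was not among those recomputed under alternative settings. EBI-like cells left after removal of doublets had 90.2 CPM [86.7–93.9] in the wild-type-labelled library and 56.7 CPM [48.8–65.6] in the other. The class was not made of the same clusters in both libraries. The cluster led by Car1 had 119 CPM in 1252 cells of the wild-type-labelled library and 196 CPM in 85 cells of the SCD-labelled library, a log2 ratio of 0.72 [0.46–0.98]. Of these cells 539 and 64 were marked as doublets. The rest had 116 CPM [107–125] in the wild-type-labelled library and 208 CPM [136–305] in the other, the latter from 21 cells and 26 UMIs. The cluster led by Xpo7 had 115 and 136 CPM, with a ratio of 0.25 [-0.11 to 0.59]. The Hbb-bs cluster, which gave 619 of the 920 EBI-like cells of the SCD-labelled library, had 30.8 CPM [24.5–38.3], close to the 33.8 CPM [28.8–39.5] of an EBI-like cluster of the wild-type-labelled library led by Hba-x.

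Maturation within the erythroid-like cluster was followed in 5 sets of near-equal numbers of cells, ordered within each library by the share of early genes among early and late erythroid UMIs. Epor in the wild-type-labelled library was 222 CPM [202–243] in the set with the fewest early UMIs and 221, 199, 168 and 154 CPM [142–167] in the next ones, so that it was lower in cells with a more immature ratio. In the SCD-labelled library the values in the same order were 285, 439, 361, 241 and 208 CPM [166–258], with 31 or 32 cells in each set. In the middle 3 of these sets the intervals of the libraries did not overlap, with the SCD-labelled library higher, and in the first and the last they did. Depth moved with this order, from medians of 5385 to 9779 UMIs in the wild-type-labelled library. Kit was at most 8.07 CPM in any of these sets.

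A wider set, erythroid-like and EBI-like cells with a UMI of at least 5 erythroid markers, gave another order. From the set with the lowest share of early UMIs to the one with the highest, Epor was 83.8, 91.4, 106, 167 and 149 CPM in the wild-type-labelled library. It was 56.1, 86.2, 119, 304 and 230 CPM in the SCD-labelled library. Gdf15 in the wild-type-labelled library went from 53.3, 54.8 and 58.3 CPM to 35.7 and 17.2 CPM. It had 0, 7.34, 11.4, 3.9 and 2.73 CPM in the SCD-labelled library, from at most 7 UMIs in a set, with no such order. Kit in the wild-type-labelled library was 3.43, 5.95, 7.66, 12.6 and 14.2 CPM, while the share of cells marked as doublets was 1.44, 4.72, 12.7, 22.7 and 16.9%, and its part in the Kit values was not tested. Kit in the SCD-labelled library had no such order, with 24.9, 5.50, 14.6, 27.3 and 10.0 CPM. How many cells of each set were EBI-like or erythroid-like was not counted. The 9 RPM markers summed to 15632 CPM in EBI-like and 4628 CPM in erythroid-like cells of the wild-type-labelled library. The sets may therefore also differ in macrophage transcripts, and the part of these in the orders of Epor, Gdf15 and Kit was not tested.

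**Figure D5:**
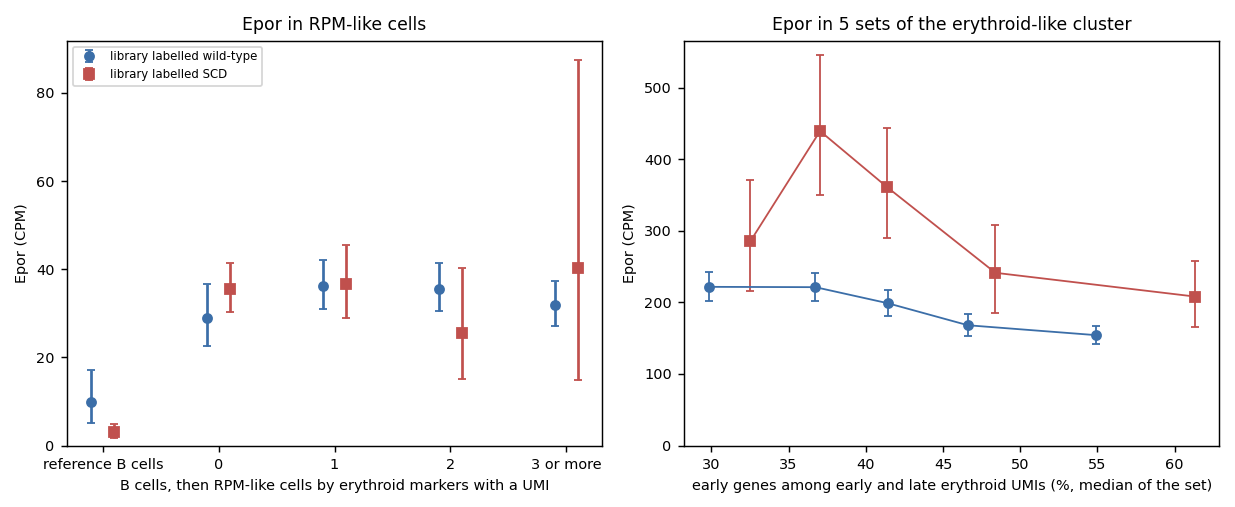
Left, Epor (CPM) in reference B cells and in RPM-like cells with a UMI of 0, 1, 2 and 3 or more of the 10 erythroid markers; right, Epor in the 5 sets of the erythroid-like cluster against the median share of early genes (%), both with exact 95% Poisson intervals. RPM-like cells lie between 25.5 and 40.2 CPM at every number of erythroid markers, and the erythroid-like sets of the SCD-labelled library lie at 208 to 439 CPM, against 154 to 222 CPM in the other.

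RPM-like cells carried Epor above the reference in both libraries, at 33.8 CPM [31.1–36.7] and 35.0 CPM [30.9–39.5]. The log2 ratios over reference B cells were 1.78 [0.96–2.74] and 3.52 [2.83–4.29], and the ratio between libraries was 0.05 [-0.17 to 0.26]. Thinned to 1000 UMIs, 3.13% and 3.57% of RPM-like cells had an Epor UMI. It was seen at like levels in each of the RPM-like clusters, with 37.1 CPM in the one led by Abcc5, 29.95 CPM in the one led by Marco and 34.8 CPM in the one led by Rgs1.

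Epor in RPM-like cells was also read by the number of erythroid markers with a UMI. This number moved with depth, from medians of 1509 to 5267 UMIs in the wild-type-labelled library and 3796 to 6432 in the other. The source of Epor UMIs in these cells was not tested. Cells with a UMI of 0, 1, 2 and 3 or more erythroid markers had 29.0, 36.2, 35.6 and 32.0 CPM in the wild-type-labelled library and 35.5, 36.5, 25.5 and 40.2 CPM in the SCD-labelled library, all with overlapping intervals within a library. B cells with 0 such markers had 8.27 CPM [1.71–24.2], from 3 UMIs, and 3.17 CPM [1.73–5.31]. RPM-like cells with 0 markers were above them beyond counting error in the SCD-labelled library, at [30.2–41.5], while in the other the intervals touched, at [22.5–36.7]. For each 1000 UMIs of the erythroid markers, RPM-like cells had 60.9 and 284 Epor UMIs, and erythroid-like cells 8.11 and 11.7. Summed erythroid markers stood at 555 and 123 CPM in RPM-like cells, near the 525 and 87.3 CPM of reference B cells and far from the 23118 and 24779 CPM of erythroid-like cells.

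Epor was set against macrophage transcripts outside the erythroid classes too. For each 1000 UMIs of the RPM markers, RPM-like cells of the SCD-labelled library had 1.68 Epor UMIs. Dendritic-like cells of that library had 1.78, Ly6c-low monocyte-like cells 1.74 and reference B cells 1.73. These 4 values came from 262, 55, 40 and 18 Epor UMIs. In the wild-type-labelled library these values were 1.45, 2.08, 1.64 and 4.04 [2.09–7.06]. The genes most like Epor over the 41 groups were March8 with a Pearson r of 0.956, Grina with 0.946, Arhgef12 with 0.944, Abcb4 with 0.942 and Blvrb, biliverdin reductase B, with 0.940.

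Partners of the receptors were measured in the same cells. Kitl, which encodes the ligand of KIT, followed the macrophages: RPM-like cells had 274 CPM [266–281] and 145 CPM [136–153], EBI-like cells 184 and 95.8 CPM, and reference B cells 30.4 and 12.7 CPM. Epo, the ligand of EPOR, and Gfral, the receptor of GDF15, had 0 UMIs in all kept cells of both libraries, which at 3 counts allows 0.03 and 0.05 CPM. Tfr2, which encodes a transferrin receptor that associates with EPOR, was highest in erythroid-like cells, with 51.2 and 37.8 CPM. EBI-like cells had 10.6 and 0.99 CPM, the latter from 4 UMIs, and reference B cells 0 and 0.17 CPM. T lymphocyte-like cells of the wild-type-labelled library had 30.2 CPM [9.79–70.4], from 5 UMIs. Csf2rb, the common β chain of cytokine receptors, was highest in dendritic-like cells among the 4 main classes, with 146 and 199 CPM, and low in erythroid-like cells, with 13.8 and 7.71 CPM. Jak2, the kinase below EPOR, had 73.6 and 114 CPM in erythroid-like cells, a log2 ratio of 0.63, and 418 and 397 CPM in dendritic-like cells. Stat5b had 19.4 and 17.0 CPM and Stat5a 5.54 and 5.40 CPM in erythroid-like cells.

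Other genes of these pathways were counted in lists. Over all 8253 genes tested in erythroid-like cells, 0.63% were called higher and 7.04% lower. In these cells 0 of 10 signalling genes below EPOR and KIT were called, with a median log2 ratio of -0.25 where all genes had -0.08. Of 8 targets of EPOR and STAT5, 0 were called higher and 2 lower, Ccnd2 at -1.08 and Socs2 at -1.19. Cish, a feedback inhibitor of this pathway, stood at -0.81, Pim1 at -0.49 and Erfe, the erythroid hormone that lowers hepcidin, at -0.47. The targets named here lie at the lower end of the list, which had a median of -0.48, and the higher ones are not given. Whether levels of the targets go with that of Epor was not tested. Of 8 erythroid transcription factors 0 were called, with Gata1 at 0.18, Klf1 at 0.04 and Gfi1b at 0.55, and the 6 early and 9 late erythroid genes likewise gave 0 calls, with medians of 0.20 and -0.12. Of 2 ligands Kitl was called lower, at -1.54, and of 6 receptors Tgfbr2 was, at -1.12. Kitl stood at 49.4 and 17.0 CPM in erythroid-like cells, beside 30.4 and 12.7 CPM in reference B cells. The part of free RNA in its ratio was not tested.

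The list of stress response and p53 target genes, which go with Gdf15 in other settings, had 1 of 13 called higher and 3 called lower in RPM-like cells, with a median of -0.23, where 9.07% of all genes were called higher and 4.31% lower and the median was 0.20. Cdkn1a, the cell cycle inhibitor p21, stood at 73.4 CPM in the wild-type-labelled library and 4.80 CPM in the other, a log2 ratio of -3.93 that was larger than that of Gdf15. Phlda3, another p53 target, had 173 and 3 UMIs, and Atf5 had a ratio of -1.04. Ddit4, a stress-induced inhibitor of mTOR, was the 1 higher, at 1.49. Trp53 itself was at 0.57, Mdm2 at 0.03, Atf4 at 0.40, Ddit3 at -0.36 and Sesn2 at -0.23, none of which was past the limit. Erythroid-like cells had 4 of 13 called lower and 0 higher, against 7.04% and 0.63% of all genes, with Cdkn1a at -2.94 from 4 UMIs in the SCD-labelled library, Atf5 at -1.68, Ccng1 at -1.20 and Chac1, with 101 and 0 UMIs.

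In RPM-like cells, where 9.07% of all genes were called higher and 4.31% lower with a median of 0.20, the signalling list gave 0 calls among 11 genes, with a median of 0.48, and the receptors 1 of 8, Acvr2a at 1.04. Targets of EPOR and STAT5 had Serpina3g higher, at 3.07, and Bcl2l1 and Tfrc lower, at -1.29 and -1.88, among 7 genes. Transcription factors had 3 of 6 lower, Klf1, Tal1 and Zfpm1, early erythroid genes 4 of 6 lower and 2 higher, Cd44 and Myc, and late erythroid genes 5 of 8 lower. Levels of Klf1, Tal1 and Slc4a1 in RPM-like cells, 10.4, 17.4 and 169 CPM in the wild-type-labelled library, were near those of its reference B cells, 9.85, 14.8 and 168 CPM, and the part of free erythroid RNA in these ratios was not tested.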

How the data were processed

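Spleen cells from 1 mouse per group were enriched with anti-F4/80 beads, freed of red cells by lysis and captured with 10x Genomics 3′ v3.1 chemistry. The authors deposited UMI counts per gene and barcode for each of the 2 libraries, not normalized. The submitters' notes name Cell Ranger 4.0.0 and GRCm38.p6, while the matrix header names version 3.1.0. How Cell Ranger assigned reads that match several genes was not examined.

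Cells with 500 to 5000 genes, at most 15% mitochondrial and 30% ribosomal-protein UMIs, and genes in at least 20 cells were kept. Counts were scaled by scran 1.30.0 size factors (R 4.3.3) and clustered with scanpy 1.11.5 on 2000 variable genes, the 3 members, hemoglobin and sex-linked genes left out, with 30 components, 15 neighbours and Leiden resolution 1. This gave 25 clusters, named where at least 3 markers were at least 2-fold above the remaining cells in 10% of cells. RPM-like and EBI-like clusters had RPM markers at least 4-fold above B cells, and EBI-like ones erythroid markers at least 2-fold above them. A cluster that met these limits could still lose its name by a check of its 10 leading genes. This happened where they held markers of another class in at least the number of its own, hemoglobin genes counting as erythroid. Unnamed clusters led by Igha, Hbb-bs, Ffar2 and Mpo had met the limits as EBI-like, dendritic-like, RPM-like and Ly6c-high monocyte-like, in this order. The limits were set after the clusters were seen, and 5 clusters stayed unnamed. The members and gene lists were chosen with earlier results of these data known. Genes were named for being members, partners of their pathways or ends of the lists, or, for likeness, as the 5 with the highest Pearson r over log2(CPM + 1) among genes with at least 100 UMIs. Doublets were marked with Scrublet, 1736 cells in the SCD-labelled library and, as its automatic threshold marked 0, the highest-scoring 10% (2072 cells) in the wild-type-labelled library; they stay in unless stated.

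Kept cells held 107315865 UMIs in the wild-type-labelled library and 64890040 in the SCD-labelled library. Intervals are exact Poisson for CPM, exact Clopper-Pearson for shares and exact conditional binomial for ratios, at 95%. For 0 UMIs, an upper limit of 3 counts was used. With 1 library per group there was no test between groups. Ratios were checked on simulated counts. Alternatives changed the filters, doublets, resolution, clustering genes, library clustering, class definition, totals, weights, normalization, depth and reference. Protein sequences were not used here.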

Additional observations from a re-analysis of the deposited data

Results flagged for a closer look

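Epor had log2 ratios (SCD over wild-type) of opposite sign in the erythroid classes. The ratio was 0.63 [0.46–0.78] in erythroid-like cells and -0.30 [-0.47 to -0.13] in EBI-like cells, where intervals cover counting error only. The difference was not tested, since each group was 1 library. Without cells marked as doublets, EBI-like cells had 90.2 CPM in the wild-type-labelled library and 56.7 CPM in the other. The EBI-like ratio was not among those recomputed under alternative settings. In the EBI-like clusters with at least 50 cells of both libraries, the ratio was 0.72 in the cluster led by Car1 and 0.25 in the cluster led by Xpo7, and 619 of 920 EBI-like cells of the SCD-labelled library came from a cluster with 30.8 CPM that held 8 cells of the other library. Of the 85 cells of the SCD-labelled library in the Car1 cluster, 64 were marked as doublets.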

How the results depend on the processing

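Of 202 alternative values for 17 ratios, 170 stayed within the counting interval of the reported value, 32 moved out of it, and of the ratios past a log2 of 1 with at least 100 UMIs 0 changed sign. The alternatives for RPM-like cells and for dendritic-like cells against the reference were added after seeing the data. Epor over reference B cells stayed at 3.76 to 5.10 and 6.01 to 7.15 in erythroid-like cells and at 1.44 to 1.93 and 3.15 to 3.65 in RPM-like cells. Gdf15 over reference B cells stayed at 1.87 to 2.42 and 2.64 to 3.43 in RPM-like cells. Its ratio between libraries there was -2.0 with at least 200 genes per cell and -2.03 as a mean over cells.

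Erythroid-like cells gave less stable values. Epor between libraries was 0.30 with all variable genes, 0.27 with each library clustered alone, 0.08 with cells taken by markers and 0.82 thinned to 2000 UMIs. Gdf15 between libraries was -0.34 thinned to 2000 UMIs, where the SCD-labelled library had 0 UMIs and the value is a bound. Kit between libraries was 1.07 with all variable genes and 1.43 with separate clustering, and 6 of its 11 alternatives had the sign reported. Against reference B cells of the wild-type-labelled library, Gdf15 was 0.71 with at least 200 genes, 0.70 at resolution 0.5 and -1.23 by markers, and Kit was -3.59 with all B lymphocyte-like cells. In the SCD-labelled library, Kit was 2.08 with at least 200 genes, 0.93 at resolution 0.5, 1.51 with all variable genes, 1.79 with separate clustering and 1.16 by markers.

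Kit in dendritic-like cells between libraries was 0.23 with at least 200 genes, 0.29 without doublets, 0.26 at resolution 0.5 and at 2, 0.21 with all variable genes, 0.23 with separate clustering, -0.17 by markers, 0.02 as a mean over cells and 0.01 with scran factors. Its ratio to B cells was 4.16 and 4.11 by markers and 2.99 and 3.12 with all B lymphocyte-like cells in the wild-type-labelled and SCD-labelled libraries, and 5.01 with all variable genes in the latter. The causes were not tested. No paired analysis was possible because each group was 1 library. With 1 mouse per group, differences between animals and between libraries cannot be told apart from those between genotypes, and depth limits Kit and Gdf15 in the 156 erythroid-like cells of the SCD-labelled library.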
